A study of Rattus norvegicus with 12 samples.

Results

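The transcripts described here are entries of NONCODE, a public catalogue of noncoding RNA, that the deposited rat long noncoding RNA (lncRNA) table lists with neither a locus name nor an Ensembl name. They were taken by that rule alone, an identifier starting NONRATT with a dash in both name fields, which gave 1550 of the 22591 transcripts in the table. The remainder comprised 18868 NONCODE transcripts with a name, 949 Ensembl transcripts and 1224 transcripts newly assembled by the submitters (MSTRG identifiers). RNA came from the lumbosacral spinal cord of Wistar rat fetuses at embryonic day 19. The ARM group (3 libraries) had anorectal malformations induced with ETU, ethylenethiourea, a teratogen that suppresses the thyroid. The normal group (3 libraries) had no malformation by its label. The labels give no dose, sex, litter or pooling, and do not say whether libraries came from separate fetuses, so p-values measure the spread between these samples, which may be technical. Every ARM sample was an ETU sample, so exposure and malformation cannot be told apart.

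Long noncoding RNAs are transcripts longer than small RNAs that carry no annotated protein. Some act in the nucleus on chromatin or on neighbouring genes, some are by-products of transcription at a coding locus, and for most catalogue entries no role is known. The developing spinal cord transcribes many of them, among them the imprinted Meg3 and antisense transcripts of the Hox clusters, whose coding genes set positional identity along the body axis. A locus name in such a table usually comes from an overlapping gene model or a gene-prediction catalogue, and the transcripts described here have none, so their position is given relative to neighbours that do. No sequence of these transcripts was in the files used here and none is printed.

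The 6 libraries held 3285614 to 3865088 counts over the table. Of the spinal cord markers looked for, 5 of 14 had a noncoding transcript carrying the symbol. Those of Meg3, Miat and Rbfox3 were abundant in all libraries. The other 2 were low, with 6 to 15 counts per library for Hoxc10 and 3 to 11 for Olig2. Levels are given as CPM per kb, the count scaled to the library's total in the table (CPM) and to a transcript length of 1 kb. The 5 markers summed to 7418 to 7698 CPM per kb in ARM libraries and 5524 to 6570 CPM per kb in normal libraries, most of it Meg3. The muscle, cartilage, gut and blood markers that were present each summed to at most 18.8 CPM per kb in any library, and those of meninges and mesenchyme (2 of 5) to 41.0 to 62.0 CPM per kb in ARM libraries and 33.8 to 56.1 CPM per kb in normal libraries. The 1 muscle marker present was Myog, at 1.11 to 1.68 CPM per kb in ARM libraries and 0 to 0.363 CPM per kb in normal libraries. None of the 3 forebrain markers was in the table. Markers of the dorsal root ganglion, which lies beside the cord, were represented by 2 of 5 genes, nearly all of it Pou4f1, and their sum was 333 to 387 CPM per kb in ARM libraries against 194 to 262 CPM per kb in normal libraries. Pou4f1 is also made by neurons of the dorsal cord. The part of these tissues in the differences between groups was not tested. In bulk tissue, fewer cells of a type and less RNA per cell cannot be told apart.

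Most unnamed transcripts were spliced. A transcript was taken as spliced when its genomic span exceeded its length, which held for 1196 of 1550 (77.2%), against 50.1% of the 18868 NONCODE transcripts with a name. Of the named transcripts, 9369 carry the catalogue's own mark for an unspliced transcript, and 9198 of these had a span equal to their length. The unnamed transcripts had a median length of 714 bases (quartiles 515 and 955 bases), against 648 bases for those with a name, and a median span of 3103.5 bases against 1290 bases. Within spliced transcripts the gap in span was smaller, 5070.5 bases against 4192 bases. The longest with a mean of at least 10 counts, NONRATT020646.2, measured 8497 bases, and the shortest, NONRATT004857.2, measured 259 bases.

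**Figure D1:**
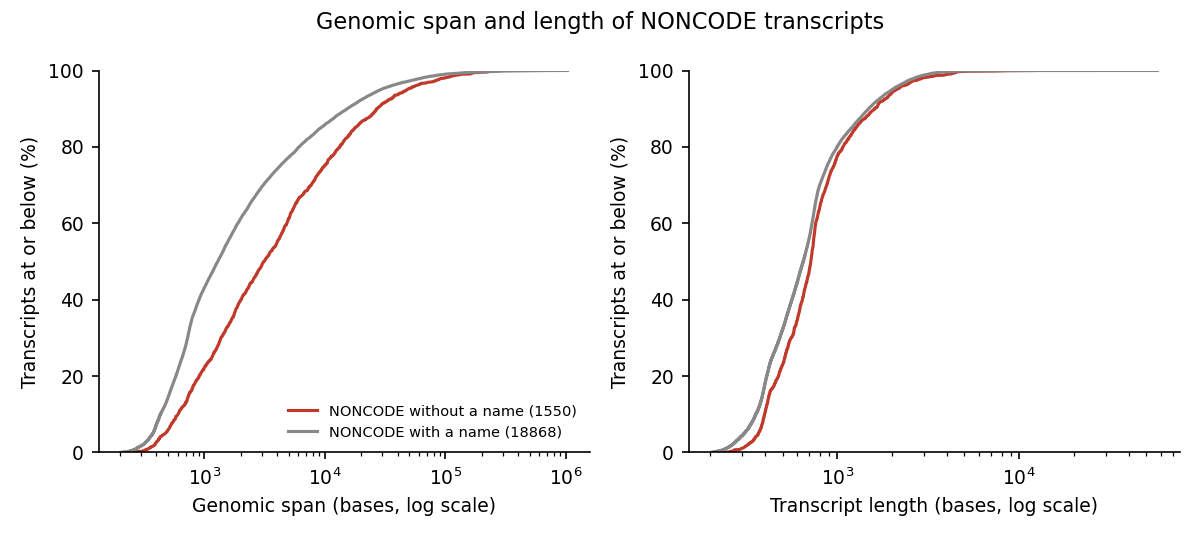
Share of transcripts (%) at or below each genomic span (left) and transcript length (right) in bases on log axes, for NONCODE transcripts without a name (red) and with one (grey). The curves stand further apart for span, with medians of 3103.5 and 1290 bases, than for length, with medians of 714 and 648 bases.

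Many unnamed transcripts lay at or near other transcribed loci. On either strand, 548 of 1550 (35.4%) overlapped another transcript of the table, against 30.6% of the NONCODE transcripts with a name, and 344 overlapped at least 1 transcript that carries a gene symbol, over 322 symbols. The other 1002 overlapped nothing in the table. Those that overlapped nothing lay a median of 9841 bases from the next transcript, against 9797 bases for the named ones, and 50.7% against 50.4% lay within 10 kb of it. Chromosome 1 held 185 (11.9%, against 12.3% of the named), chromosome 10 held 136 (8.77% against 7.87%) and X held 47 (3.03% against 2.78%). They fell in 1501 clusters of overlapping transcripts, of which 1011 held no other kind of transcript.

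Levels were low for most of them and high for a few. The mean over 6 libraries had a median of 5.96 CPM per kb, with quartiles of 1.71 and 19.9, a lowest value of 0.0299 and a highest of 1356 CPM per kb. At least 1 CPM per kb was reached by 1304 (84.1%, against 84.8% of the named) and at least 10 CPM per kb by 598 (38.6% against 42.3%). Most, 1331 of 1550, had a count in every library, and 28 had one in a single library. The number with at least 1 count was 1461, 1457 and 1446 in ARM libraries and 1463, 1450 and 1458 in normal libraries, a difference within the spread (two-sided exact permutation p = 0.6, where 3 against 3 cannot go below 0.1).

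Together these transcripts made up 5.65%, 5.63% and 5.65% of the table's counts in ARM libraries and 5.18%, 5.33% and 6.02% in normal libraries. The means were 5.65% ± 0.0161 and 5.51% ± 0.449 (SD, n = 3 each), and the ARM values lay inside the normal range (two-sided exact permutation p = 0.7). The normal libraries were the more spread of the 2 groups.

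Per kilobase, the unnamed transcripts were slightly lower than the named ones in every library. The median of log2(CPM per kb + 0.1) was 2.48 ± 0.0875 for the unnamed and 2.78 ± 0.0796 for the named (SD, n = 6 libraries). The difference averaged -0.30 (range -0.40 to -0.22) and was negative in 6 of 6 libraries, with a two-sided exact paired permutation p of 0.03125, the smallest that 6 libraries allow. The difference was then taken within unspliced and within spliced transcripts. Among unspliced transcripts, 354 unnamed and 9421 named, it was -0.48 and negative in 6 of 6 libraries (exact p = 0.03125). Among spliced transcripts it was 0.023, positive in all but 1 library (exact p = 0.125). The split by splicing was chosen after the values were seen.

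The 10 most abundant unnamed transcripts carried 33.6%, 33.1% and 35.0% of the counts of all 1550 in ARM libraries and 30.6%, 38.1% and 33.0% in normal libraries (two-sided exact permutation p = 1.0). None was among the 5 most abundant transcripts of the table. Of the 10, 6 overlapped no other transcript, 3 were unspliced and 2 lay on X. By count the leading one was NONRATT018484.2 (chr3:111406336-111410585, 4250 bases, unspliced), which overlapped nothing in the table and lay 28837 bases from a transcript of Nusap1, a spindle-associated protein gene. It had 9301, 10933 and 10680 counts in ARM libraries and 9956, 10967 and 12746 in normal libraries. Its level was 666, 731 and 675 CPM per kb in ARM libraries and 683, 668 and 789 CPM per kb in normal libraries, and the groups overlapped.

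Next came NONRATT023866.2 (chr5:165991076-165994517, 3442 bases, unspliced), 13768 bases from Kif1b, which encodes a kinesin motor of axonal transport. It had 806, 886 and 833 CPM per kb in ARM libraries and 816, 748 and 957 CPM per kb in normal libraries, with the ARM values inside the normal range. NONRATT017382.2 (chr20:29680214-29681723, 1510 bases, unspliced) lay 31425 bases from Ascc1 and averaged 885 ± 93.4 CPM per kb in ARM libraries and 868 ± 142 CPM per kb in normal libraries (SD, n = 3 each). NONRATT015097.2 on chromosome 2 overlapped Sub1, a transcription coactivator gene, and averaged 582 ± 39.8 CPM per kb in ARM libraries and 617 ± 46 CPM per kb in normal libraries (SD, n = 3 each). In all 4 the largest library of a group was at most 1.38 times the smallest.

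The highest level per length, 1356 CPM per kb, belonged to NONRATT033351.1 (chr6:133658937-133691129, 1889 bases, spliced). It is 1 of 19 overlapping transcripts at Meg3, a maternally expressed imprinted lncRNA gene that is strongly transcribed in neurons. It had 1441, 1328 and 1547 CPM per kb in ARM libraries and 1269, 1176 and 1374 CPM per kb in normal libraries. The ranges overlapped, and the log2 fold change (ARM over normal throughout) was 0.13 (SE 0.10, edgeR quasi-likelihood adjusted p = 0.891). The 19 transcripts summed to 146438, 142914 and 163795 counts in ARM libraries and 134573, 144297 and 120936 in normal libraries, a log2 fold change of 0.18 (edgeR adjusted p = 0.849).

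**Figure D2:**
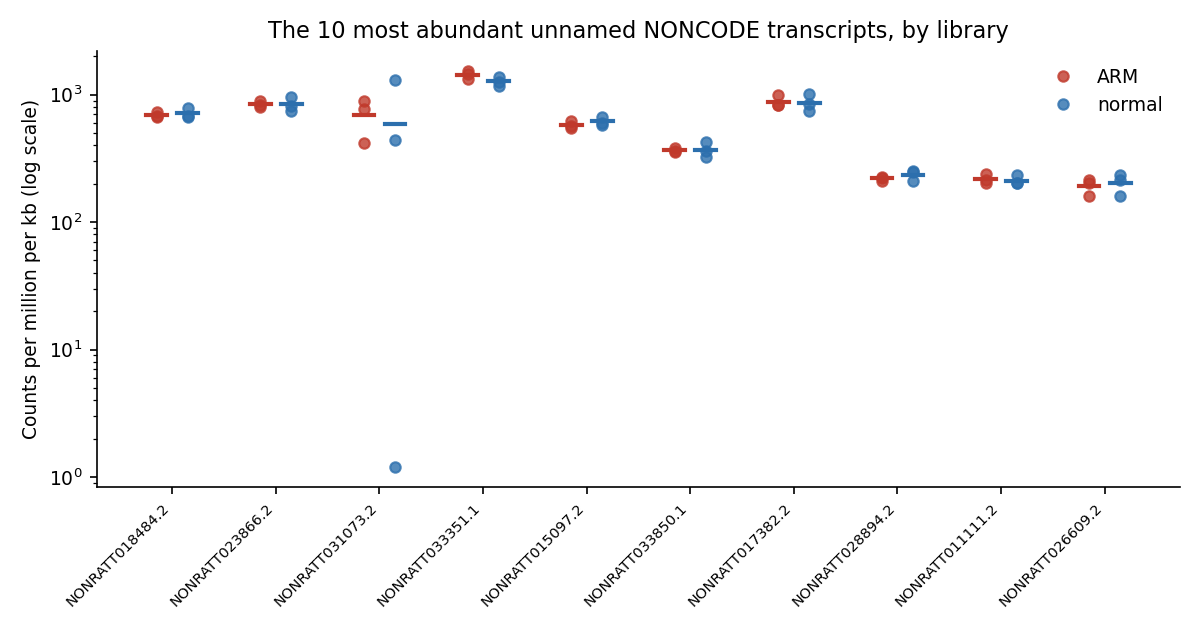
Level in CPM per kb (log axis) of the 10 unnamed transcripts with the highest mean CPM, 1 point per library with the group mean as a bar, ARM left of normal. For 9 of the 10 the largest over smallest library within a group was 1.45 at most, and the X transcript NONRATT031073.2 ranged from 1.2 to 1316 CPM per kb among the normal libraries.

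None of the 10 passed the test of ARM against normal: their log2 fold changes ran from -0.15 to 0.18, and the lowest edgeR adjusted p was 0.885. The third by count, NONRATT031073.2 (chrX:74332849-74341256, 4389 bases, spliced), differed between libraries of 1 group. It had 11153, 6396 and 14650 counts in ARM libraries and 18, 22326 and 7415 in normal libraries. Normal replicate 1 was therefore nearly empty for a transcript that was abundant in the other 5 libraries. A neighbour that does not overlap it, NONRATT031072.2 (catalogue locus name parbee), had 26577, 14386 and 34585 counts in ARM libraries and 50, 56874 and 18732 in normal libraries, the same order. Of the transcripts that overlap it, ENSRNOT00000076920 had 2, 2 and 2 counts in ARM libraries and 1, 879 and 564 in normal libraries, in the same order as NONRATT031073.2 among the normal libraries and low in every ARM library. The overlapping NONRATT030613.2 (ruby) varied far less, with 60, 73 and 79 counts in ARM libraries and 68, 104 and 118 in normal libraries. The nearest transcript with a gene symbol was one of Chic1, at 106674 bases, and no file pairs NONRATT031073.2 with a gene.

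The comparison of ARM with normal asks which transcripts differ in the cord of malformed fetuses. The fit was made on the whole table with edgeR's quasi-likelihood test, and a call is a Benjamini-Hochberg adjusted p under 0.05. Of the 1550, 899 passed the filter on low counts and 651 did not. Among the 899, 1 was higher in ARM (0.111%, against 0.0675% of all 13343 tested transcripts) and 0 were lower (against 0.0525%), and in either direction 0.12% of all tested were called. At an unadjusted p under 0.05, 35 were higher (against 3.44% of all tested) and 22 were lower (against 2.54%), which together is 6.34% of the 899. In 73 (8.12%) all ARM libraries lay above all normal libraries, against 7.43% of all tested, and in 44 (4.89%) they lay below, against 4.54%. Each of these shares is close to that of all tested transcripts. The median log2 fold change of the 899 was 0.03 (quartiles -0.17 and 0.27), against 0.011 over all tested, with 485 above 0 and 414 below. Beyond 1 in either direction on the log2 scale lay 30 higher and 24 lower (6.01%, against 3.72% of all tested).

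The transcript that passed was NONRATT004731.2 (chr10:73963040-73989884, 639 bases, spliced). It overlaps no other transcript and lies 42230 bases from a transcript of Vmp1, an autophagy gene, and 25455 bases from one of Cltc, which encodes the clathrin heavy chain. In RefSeq's GRCr8 order Ptrh2 lies between these genes. It had 217, 61 and 183 counts in ARM libraries and 3, 2 and 1 counts in normal libraries, with levels of 103, 27.1 and 76.9 CPM per kb in ARM libraries and 1.37, 0.810 and 0.412 CPM per kb in normal libraries. The groups did not overlap, and ARM replicate 2 was the lowest of the ARM libraries. The log2 fold change was 6.21 (SE 0.69, edgeR adjusted p = 0.0440), a size that rests on counts at or below 3 in every normal library. The call was lost on leaving out ARM replicate 1 (edgeR adjusted p = 0.0595), ARM replicate 3 (0.134), normal replicate 1 (0.133), normal replicate 2 (0.186) or normal replicate 3 (0.184), with a log2 fold change of 5.80 to 6.62 over all 6 such fits. It was lost too with limma-voom (adjusted p = 0.808) and with no filter on low counts (0.162), and held with DESeq2 (5.4e-14).

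NONRATT007306.2 lay just outside the threshold on the lower side. This unspliced transcript of 3997 bases (chr12:15967222-15971218) overlaps the catalogue locus zalo and lies 146544 bases from Lfng, a glycosyltransferase gene that tunes Notch signalling. It had 294, 339 and 361 counts in ARM libraries and 877, 1171 and 1691 in normal libraries, or 22.4, 24.1 and 24.3 CPM per kb in ARM libraries and 64.0, 75.8 and 111 CPM per kb in normal libraries. The groups did not overlap, and the ARM libraries were nearly alike while the normal ones spread. The log2 fold change was -1.88 (SE 0.22, edgeR adjusted p = 0.0527). It passed without normal replicate 1 (0.0268), without normal replicate 3 (0.0231) and with DESeq2 (1.7e-13). It did not pass on leaving out any of the other 4 libraries (0.131 to 0.286), with no filter (0.170), at a mean of at least 10 CPM (0.0766) or with limma-voom (0.0652). Summed with its overlapping transcript it had a log2 fold change of -1.89 and an edgeR adjusted p of 0.0316. That value came from a separate fit of sums over overlapping transcripts. The partner added only 1, 0 and 2 counts in ARM libraries and 1, 0 and 2 in normal libraries, so the sum is no independent evidence.

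**Figure D3:**
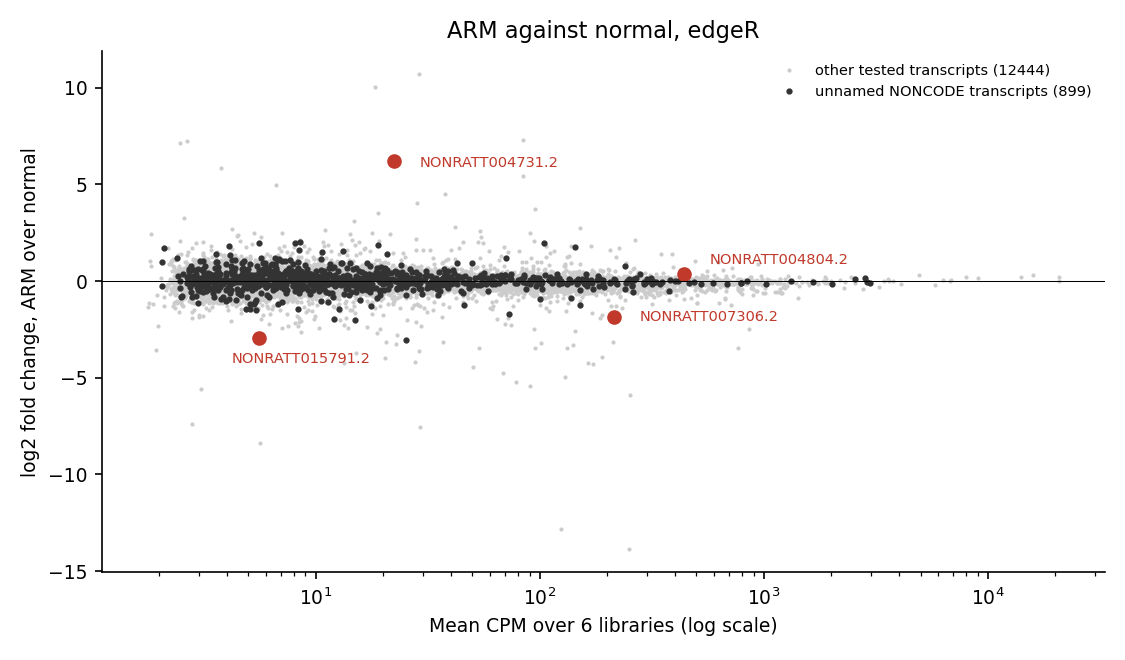
Log2 fold change, ARM over normal, against mean CPM over 6 libraries (log axis) for the 899 tested unnamed transcripts (dark) and the rest of the 13343 tested transcripts (grey), with 4 unnamed transcripts described in the text in red. The single call, NONRATT004731.2, is at 6.21 and the median at 0.03.

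By smallest unadjusted p, the next higher one was NONRATT004804.2 in the Hoxb cluster (chr10:84148534-84150239, 1706 bases, unspliced). It overlaps a transcript named Hoxb3 and lies 3493 bases from one of Hoxb5 and 14665 bases from one of Hoxb8, genes for transcription factors that pattern hindbrain and spinal cord. It had 1684, 1715 and 1936 counts in ARM libraries and 1267, 1401 and 1505 in normal libraries. Levels were 297 ± 9.96 CPM per kb in ARM libraries and 220 ± 10.4 CPM per kb in normal libraries (SD, n = 3 each), with no overlap between groups. The log2 fold change was 0.38 (SE 0.10, unadjusted p = 0.0059) and did not pass (edgeR adjusted p = 0.832). All 7 tested transcripts of its cluster of 8 had positive estimates, 0.33 to 0.61, none past the threshold. The cluster summed to 4016, 3711 and 4539 counts in ARM libraries and 2675, 3292 and 3018 in normal libraries (log2 fold change 0.46, edgeR adjusted p = 0.791). The cluster joins transcripts whose genomic spans overlap on either strand, so their counts may not be independent.

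The next lower one was NONRATT015791.2 (chr2:240626553-240654450, 753 bases, spliced), 1 of 9 overlapping transcripts at Ube2d3, a ubiquitin-conjugating enzyme gene. It had 4, 3 and 7 counts in ARM libraries and 18, 68 and 26 in normal libraries, with no overlap between the groups. The log2 fold change was -2.93 (SE 0.61, unadjusted p = 0.00217) and did not pass (edgeR adjusted p = 0.832). The estimates of 2 overlapping partners had opposite signs and neither passed. NONRATT015790.2 had 1100, 872 and 1286 counts in ARM libraries and 694, 400 and 307 in normal libraries, with an estimate of 1.22. NONRATT015792.2 had 1639, 2115 and 1858 counts in ARM libraries and 2186, 2420 and 2627 in normal libraries, with an estimate of -0.34. The sum over the 9 was nearly level, with 2859, 3138 and 3301 counts in ARM libraries and 3057, 3092 and 3107 in normal libraries (log2 fold change 0.011, edgeR adjusted p = 0.992). How the counting divided reads among these overlapping transcripts is not given in the sources used here, so the value of any single one is uncertain.

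**Figure D4:**
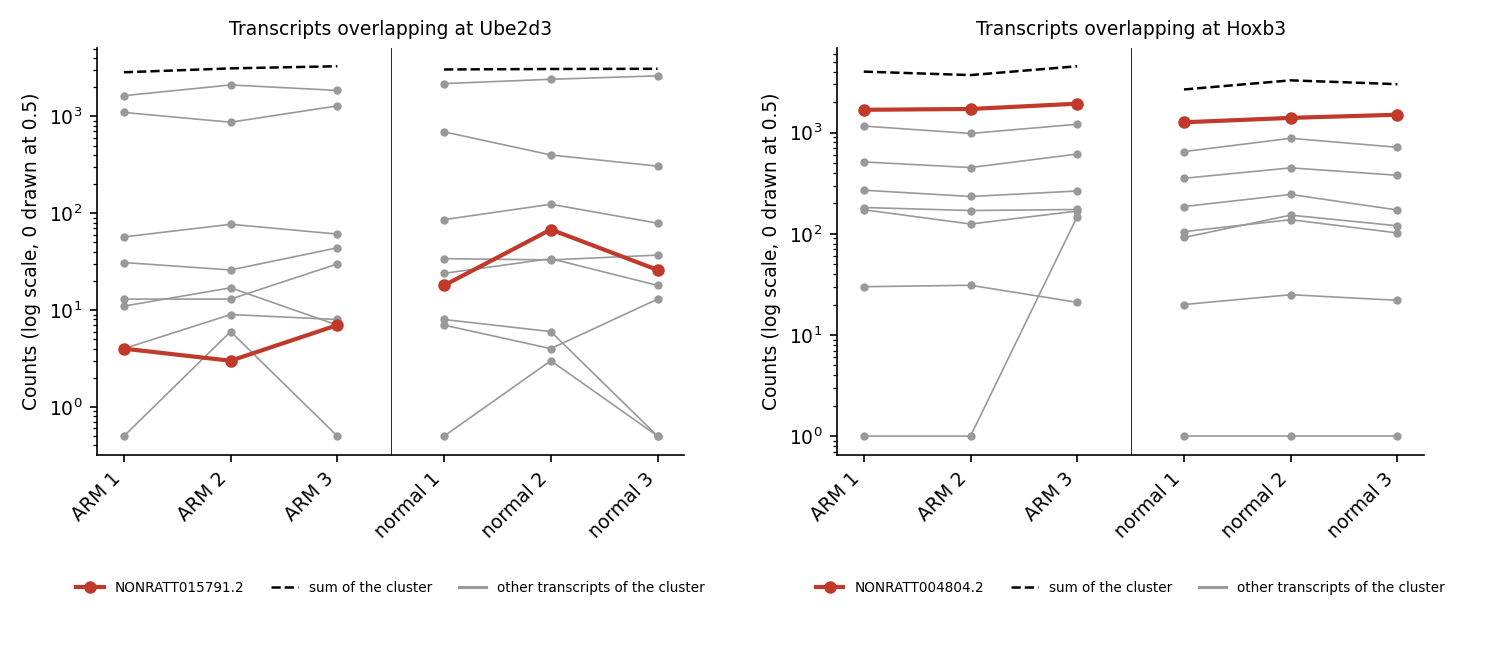
Counts (log axis) of each transcript overlapping at Ube2d3 and at Hoxb3 in the 3 ARM and 3 normal libraries, with the unnamed transcript in red and the sum dashed; lines join the points of 1 transcript and carry no order. At Ube2d3 the sum stays between 2859 and 3301 counts while single transcripts differ, and at Hoxb3 every ARM sum is above every normal sum.

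Unnamed transcripts were looked for at 14 lists of loci that matter in this tissue, and a locus could be placed only where its symbol was carried by a transcript of the table. Within 10 kb of such a locus lay 9 of the 1550. Of these, 7 were tested and 0 passed, too few to set apart from the 0.12% called over all tested transcripts. No unnamed transcript lay at the loci that could be placed for spinal patterning (16 of 51 listed), motor neurons (7 of 19), astrocytes and progenitors (8 of 20), known lncRNAs (5 of 33), skeletal muscle and cartilage (5 of 18) or the dorsal root ganglion (4 of 17). At the pan-neuronal loci there were 2. NONRATT005199.2 overlaps Rbfox1, a splicing factor gene of neurons, and had 984, 1150 and 1198 counts in ARM libraries and 932, 979 and 1293 in normal libraries (log2 fold change 0.08, edgeR adjusted p = 0.944). NONRATT030121.2 overlaps Map2, which encodes a dendritic microtubule protein, and had 325, 375 and 376 counts in ARM libraries and 263, 327 and 394 in normal libraries (0.16, edgeR adjusted p = 0.906). In both, the groups overlapped.

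At the thyroid hormone loci there was 1 unnamed transcript, NONRATT024891.2, which overlaps Ncoa1, a nuclear receptor coactivator gene. It had 1, 1 and 5 counts in ARM libraries and 4, 9 and 1 in normal libraries and was not tested. NONRATT001594.2 at Aldh1a1, a retinoic acid synthesis gene, had 1, 0 and 2 counts in ARM libraries and 2, 1 and 2 in normal libraries and was not tested either. At these depths a difference in either transcript was not detectable. Summed with the overlapping transcript of Ncoa1, the counts were 23, 34 and 21 in ARM libraries and 31, 22 and 36 in normal libraries (log2 fold change -0.18, SE 0.31, edgeR adjusted p = 0.935).

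Beside markers of tissues around the cord there were 2 more. NONRATT029364.2 overlaps Col3a1, a fibrillar collagen gene of connective tissue, and had 11, 10 and 11 counts in ARM libraries and 22, 7 and 13 in normal libraries. Its log2 fold change of -0.37 (edgeR adjusted p = 0.926) was 0.15 without normal replicate 1. NONRATT003020.2 (chr1:168971764-168972672, 800 bases, spliced) begins 62 bases from the transcript of Hbb, a beta globin gene of red cells. It had 21, 22 and 21 counts in ARM libraries and 38, 154 and 79 in normal libraries, without overlap. The log2 fold change was -2.02 (SE 0.47, unadjusted p = 0.00398, edgeR adjusted p = 0.832), and -1.43 without normal replicate 2; DESeq2 called it lower (adjusted p = 0.0104). The Hbb transcript, the 1 blood marker of 4 in the table, had 3.10 to 5.61 CPM per kb in ARM libraries and 3.36 to 18.8 CPM per kb in normal libraries, high in normal replicates 2 and 3. The part of blood in this difference was not tested.

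A further set varied between libraries of the same group. Members were counted when, within a group, the highest library had at least 100 counts and at least 10 times the CPM of the lowest, with a count of 0 read as 1; this criterion was chosen after values were seen. It held for 32 of 319 with enough counts (10.03%), against 267 of 4187 named NONCODE transcripts (6.38%), 6 of 100 Ensembl and 15.5% of MSTRG transcripts. It held within ARM for 21, within normal for 23 and within both for 12, and 21 of the 32 overlapped no other transcript. None of the 32 was called in the test of ARM against normal, where 0.12% of all tested transcripts were called. The criterion picks a wide spread within a group, which works against a call. The absence of calls therefore carries no weight here.

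NONRATT027551.2 (chr8:33389737-33392240, 2504 bases, unspliced) lies 20955 bases from Arhgap32 and had 2019, 5 and 2315 counts in ARM libraries and 1995, 2294 and 4 in normal libraries. One library in each group was nearly empty and the other 4 were alike. NONRATT017985.2 (chr3:8579708-8589351, 1224 bases, spliced) has transcripts of Sptan1, the alpha spectrin gene, on both sides. It had 3106, 21 and 19 counts in ARM libraries and 18, 18 and 4950 in normal libraries, so that a single library in each group was high. NONRATT002334.2, spliced and 154 bases from a transcript of the calmodulin gene Calm3, had 594, 2 and 349 counts in ARM libraries and 13, 943 and 1465 in normal libraries.

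The libraries that were low were not always the same ones. NONRATT007498.2, which overlaps Clip1, a microtubule plus-end protein gene, had 36, 647 and 734 counts in ARM libraries and 46, 869 and 1051 in normal libraries, low in replicate 1 of both groups. NONRATT030307.2, which overlaps Hdlbp, an RNA-binding protein gene, had 1159, 921 and 86 counts in ARM libraries and 1521, 57 and 1784 in normal libraries. NONRATT024782.2 overlaps 1 other transcript, NONRATT024781.2 of Cox7a2l, a respiratory chain assembly gene. It had 252, 14 and 343 counts in ARM libraries and 502, 2 and 4 in normal libraries, while NONRATT024781.2 had 374, 2000 and 157 counts in ARM libraries and 54, 1680 and 2523 in normal libraries. There the unnamed transcript was high where its partner was low.

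**Figure D5:**
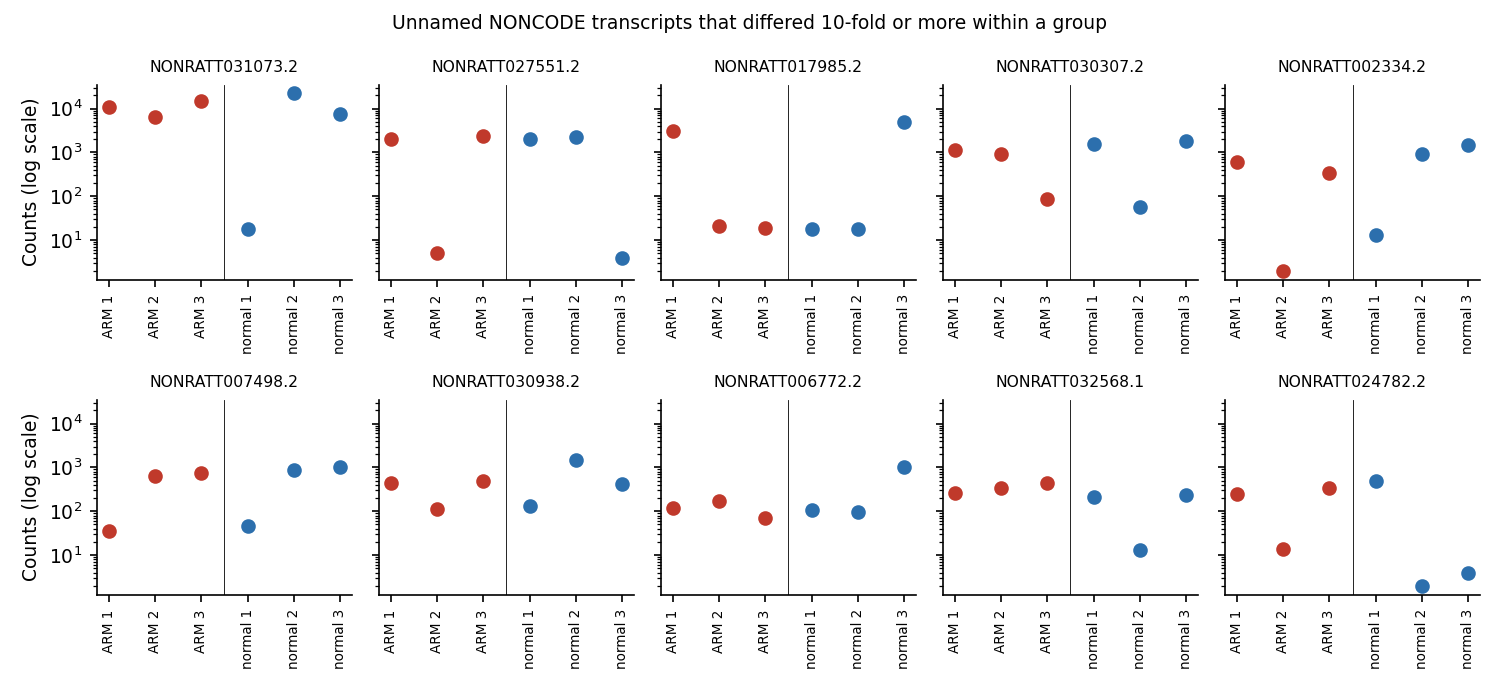
Counts in each of the 3 ARM and 3 normal libraries (log axis) of the 10 most abundant among the 32 unnamed transcripts that differed at least 10-fold between libraries of 1 group. The low library differs from transcript to transcript, as for NONRATT027551.2, low in ARM replicate 2 and normal replicate 3.

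At the low end the counts were more regular than sampling gives. Of 52 unnamed transcripts with 6 counts in total, 34 (65.4%) had 1 count in each library, where random spread would give 1.53%. The share was 61.9% among named NONCODE transcripts and 2.38% among Ensembl transcripts. Of 24 with 12 counts in total, 7 (29.2%) had an equal count in each library, against 26.2% of the named. What produced this regularity was not tested, and detection at 1 count carries little weight. At a minimum of 10 counts, 869, 881 and 892 members were detected in ARM libraries and 862, 867 and 884 in normal libraries (two-sided exact permutation p = 0.4).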

How the data were processed

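The 6 lncRNA libraries of a series of 12 samples were used; the 6 miRNA libraries were not. Per the file headers, the deposited values used are unnormalized counts for each transcript. The table's other 6 per-sample columns were not used, because 1 measure was kept. CASAVA 1.8, TopHat2 2.0.9, Cufflinks 2.1.1, Cuffdiff and a mouse build (mm10) stand in the submitters' processing notes, although the identifiers are of rat. Which rat build, counting tool and strand setting were used is not given in the sources used here. Levels were computed as CPM of the table total per kb of deposited length. A floor of 3 counts equals 0.776 to 0.913 CPM and covers counting error only. Replicate pairs differed by 11.1 to 24.0 times sampling variance, so none was merged.

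The normal columns match their group only, so replicate numbers of normal libraries are names. Counts of all 22591 transcripts were given to edgeR 4.0.16 in R 4.3.3 (TMM, default expression filter, quasi-likelihood, phenotype alone). The 13343 that passed the filter were tested. Library values were compared by exact permutation. Gene symbols came from the table's names, matched to RefSeq GRCr8, for 8250 transcripts. Named were the 2 highest and 2 lowest by the call or else by unadjusted p, the 10 most abundant by count and 5 per kilobase, up to 2 per locus list, the longest and shortest, and the overlapping and flanking transcripts; the examples that vary within a group were picked after their values were seen. The members and lists were chosen with earlier results of these data known. Alternatives included DESeq2 1.42.0 and limma 3.58.1 (voom). The fit was also run on simulated counts with the same dispersion for every transcript. Spread between libraries here differed from transcript to transcript, so that run does not bear on the calls. Some items that the naming rule takes are not reported here.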

Additional observations from a re-analysis of the deposited data

How the results depend on the processing

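Over all transcripts edgeR called 16; the count was 9 with no filter on low counts, 8 with a mean of at least 10 CPM, 46 with DESeq2 and 19 to 29 on leaving out a library. Members higher in ARM numbered 1, but 0 with no filter, with at least 10 CPM and with limma-voom, and 0 to 3 on leaving out a library. Members lower numbered 0, but 3 with DESeq2 (NONRATT007306.2, NONRATT015791.2 and NONRATT003020.2) and 0 to 2 on leaving out a library. Other scaling (DESeq2 size factors, total counts) left 1 higher and 0 lower, as did sums over overlapping transcripts among the 556 tested clusters made up of members alone; NONRATT007306.2 summed with its named partner was called lower (adjusted p = 0.0316). The median log2 fold change of the members ran from -0.0080 to 0.072 on leaving out a library and reached 0.075 with total counts, where that of all tested was 0.055. The log2 fold change of NONRATT029364.2 ran from -0.72 to 0.15 on leaving out a library, 0.15 being without normal replicate 1. The difference in share of counts, ARM minus normal, was 0.139 points and ran from -0.027 to 0.394 on leaving out a library. The difference in members with at least 1 count, -2.33, was 9.67 at a minimum of 10 counts and ran from -5.83 to 2.0 on leaving out a library, with 0.667 without normal replicate 1. The lower level per kb was 0.023 in spliced transcripts alone, and with 5 libraries ran from -0.31 to -0.28 at exact p = 0.0625, the smallest 5 allow. The share of transcripts with at least 1 count was 0.327 points above that of the named (exact paired permutation p = 0.25), but -1.21 points at a minimum of 10 counts (exact p = 0.03125). Within 50 kb, 17 members lay at listed loci. Members varying within a group numbered 39 at 5-fold, 23 at 20-fold and 51 with a minimum of 50 counts. The causes of these shifts were not tested. No paired analysis was possible because the normal columns carry no number that ties them to a sample. The expression filter left 651 members untested; with no filter all 1550 were tested and 0 were called.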
